A study of Mus musculus with 12 samples.

Results

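Oxt, Avp, Pomc, Hcrt, Pmch, Trh, Gal, Agrp and Cartpt are 9 genes of neuropeptides made mainly in the hypothalamus, taken by symbol from the 23183 symbols listed for each library of mouse hippocampus and prefrontal cortex. They were chosen by their level in each library, which was already in view, so their own levels and differences are given as a description, with no test. Male C57BL/6 mice, an inbred laboratory strain, received X-rays to the abdomen as a model of lasting gut injury, with 13 Gy in the library names, or were not irradiated. Both brain regions were taken in the chronic phase from 3 irradiated and 3 control mice. This gave 4 groups of 3 libraries, hippocampus irradiated, hippocampus control, prefrontal cortex irradiated and prefrontal cortex control, and a numbered mouse of a treatment gave 1 library of each region. No transgene, deletion or drug is named for any group. The sources used here give neither the time after irradiation nor the age of the mice. All 12 libraries carry the same batch label. Values were read as FPKM, a fragment count scaled by transcript length and library total, so levels can be set side by side between genes.

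The hypothalamus lies at the base of the brain, and its peptides are cut from longer precursors and stored in dense-core vesicles. Oxytocin and vasopressin come from large neurons of the paraventricular and supraoptic nuclei that send axons to the posterior pituitary. Other peptide neurons there set feeding, arousal and pituitary output, and their cell bodies are few in hippocampus and cortex. Some of the 9 genes also have cortical or hippocampal expression of their own, Cartpt among them, so a peptide transcript alone does not place a cell in the hypothalamus.

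Oxt and Avp arose as a gene pair and lie beside each other on mouse chromosome 2 (mm10, GENCODE M21). Oxt is at chr2:130576173-130577054 on the plus strand and Avp at chr2:130580620-130582554 on the minus strand, with their ends facing each other 3565 bases apart. Their transcripts, of 537 and 577 bases, hold an identical run of 127 bases in the coding sequence, across the junction of exons 1 and 2. It is shown in capitals with 30 bases on each side, because a fragment that lies within it cannot be given to either gene alone, which matters for low values of this pair.

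Oxt: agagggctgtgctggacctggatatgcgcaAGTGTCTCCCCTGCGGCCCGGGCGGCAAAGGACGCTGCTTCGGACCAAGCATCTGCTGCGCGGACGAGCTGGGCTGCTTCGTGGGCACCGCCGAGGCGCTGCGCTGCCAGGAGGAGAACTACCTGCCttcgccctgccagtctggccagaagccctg
Avp: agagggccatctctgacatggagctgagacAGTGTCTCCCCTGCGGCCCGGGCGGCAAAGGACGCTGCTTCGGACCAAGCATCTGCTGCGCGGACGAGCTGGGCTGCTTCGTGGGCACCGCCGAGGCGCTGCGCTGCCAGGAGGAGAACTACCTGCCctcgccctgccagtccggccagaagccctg

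Of the 438 stretches of 100 bases in the Oxt transcript, 28 also occur in Avp, and of 488 stretches of 50 bases, 78 do. Beyond these stretches the transcripts can be told apart. The sources used here do not say how the counting treated such fragments.

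The libraries were of similar depth. What 1 fragment is worth to a gene's value gave relative depths of 0.856 to 1.04 (1.00 is hippocampus irradiated 1), and 12640 to 12967 genes reached 1 FPKM in a library. The region labels held against markers: hippocampus was higher in 9 and lower in 1 of 12 genes of its subfields, and lower in 8 and higher in 1 of 10 genes of cortical layers (limma, adjusted p under 0.05), where 23.1% of all genes tested were higher in hippocampus and 22.8% lower. All 6 prefrontal libraries also carried genes of the striatum, the nucleus below the frontal cortex, with Ppp1r1b (DARPP-32, a phosphatase inhibitor of striatal neurons) at 317 to 397 FPKM against 32.8 to 79.5 in hippocampus. All 15 striatal genes were tested, and 14 were lower in hippocampus, against the same 22.8% of all genes.

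Oxt and Avp, the neurohypophysial hormones, were near the lower limit of detection in 11 of the 12 libraries and high in prefrontal cortex control 3. Prefrontal Oxt was 0.149, 0.459 and 0.470 FPKM in irradiated mice 1 to 3 and 0.535, 0.344 and 22.3 FPKM in control mice 1 to 3. Control 3 therefore stood 41.7 times above the highest of the other 5 libraries, while those 5 overlapped between the treatments. Prefrontal Avp was 0.495, 0.169 and 0.870 FPKM in irradiated mice and 0.988, 0.956 and 11.3 FPKM in control mice. Control 3 was 11.4 times the next library, and all 3 irradiated libraries lay below all 3 controls. In units of 1 fragment, Oxt in control 3 stood at about 153 and Avp at about 71.1, against about 1 to 5 for either gene in the other prefrontal libraries.

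Gal, the galanin gene, expressed in several hypothalamic nuclei and in the locus coeruleus, was high in the same library. Its prefrontal levels were 0.303, 0 and 0.740 FPKM in irradiated mice and 0, 0.692 and 5.79 FPKM in control mice. Control 3 was 7.83 times the next library, and the other 5 overlapped. Trh, whose product thyrotropin-releasing hormone drives the pituitary's thyroid axis, was 1.56, 1.32 and 1.98 FPKM in irradiated prefrontal cortex and 1.01, 2.24 and 5.26 FPKM in controls. It was therefore measurable in all 6 libraries and 2.35 times the next library in control 3. Pomc, the precursor of melanocortins and beta-endorphin, was 1.38, 1.61 and 1.81 FPKM in irradiated prefrontal cortex and 1.11, 1.19 and 3.19 FPKM in controls, 1.76 times the next library in control 3.

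Of the other genes of feeding and arousal, Cartpt, Agrp, Hcrt and Pmch did not have their highest prefrontal value in control 3, unlike Pomc. Cartpt, which encodes the CART peptides, had the highest median of the 9 genes in prefrontal cortex, with 16.1, 8.51 and 18.3 FPKM in irradiated mice and 18.9, 15.2 and 15.5 FPKM in controls, so control 3 lay within the others. Agrp, the melanocortin antagonist of arcuate feeding neurons, was 0.108, 0.111 and 0 FPKM in irradiated mice and 0.516, 0.371 and 0 FPKM in controls. It was listed at 0 in control 3. Its annotated span on chromosome 8 overlaps other genes on both strands, so low values of it are uncertain. Hcrt, the orexin precursor, was listed at 0 in the 3 irradiated libraries and in control 2, and stood at 0.157 and 0.134 FPKM in controls 1 and 3, about 1 fragment each. Pmch, the precursor of melanin-concentrating hormone, was 0.184, 0.190 and 0.288 FPKM in irradiated mice and 0, 0 and 0.0922 FPKM in controls, or 0 to about 3 fragments. Pmch overlaps Parpbp on the opposite strand, and the sources used here do not say whether counting used the strand.

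In hippocampus no library reached both 1 FPKM and 3 times the others for any of the 9 genes. Oxt was 0, 0.152 and 0.310 FPKM in irradiated mice and 0.466, 0.462 and 0.697 FPKM in controls, or about 0, 1 and 2 against 3, 3 and 4 fragments. Avp was 0.332, 0.846 and 0.518 FPKM in irradiated mice and 1.55, 0.857 and 1.36 FPKM in controls, or about 2 to 5 against 5 to 9 fragments. In both genes the irradiated libraries lay below the controls, by 1 fragment or less at the nearest pair. Pomc was 1.51, 1.26 and 1.63 FPKM in irradiated mice and 1.91, 1.70 and 2.19 FPKM in controls, again without overlap. Gal was 0.306, 0.514 and 0.827 FPKM in irradiated mice and 1.36, 1.65 and 0.687 FPKM in controls, and the groups overlapped through control 3. Trh went the other way, with 0.386, 0.256 and 0.846 FPKM in irradiated mice and 0.173, 0.171 and 0.0921 FPKM in controls, or about 4, 3 and 10 against 2, 2 and 1 fragments.

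The remaining hippocampal values were lower or overlapped. Cartpt was 3.16, 2.53 and 2.89 FPKM in irradiated mice and 3.51, 3.43 and 2.49 FPKM in controls, with control 3 the lowest of all 6. Agrp was 0.218, 0.220 and 0.333 FPKM in irradiated mice and 0.335, 0.178 and 0 FPKM in controls. Pmch was 0, 0 and 0.375 FPKM in irradiated mice and 0.0948, 0 and 0 FPKM in controls, and its 1 high value was about 4 fragments. Hcrt was listed at 0 in 5 hippocampal libraries and at 0.152 FPKM, about 1 fragment, in control 3. Over all 12 libraries Hcrt was above 0 in 3, Pmch in 6 and Agrp in 9, and none of the 3 reached 1 FPKM in any.

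**Figure D1:**
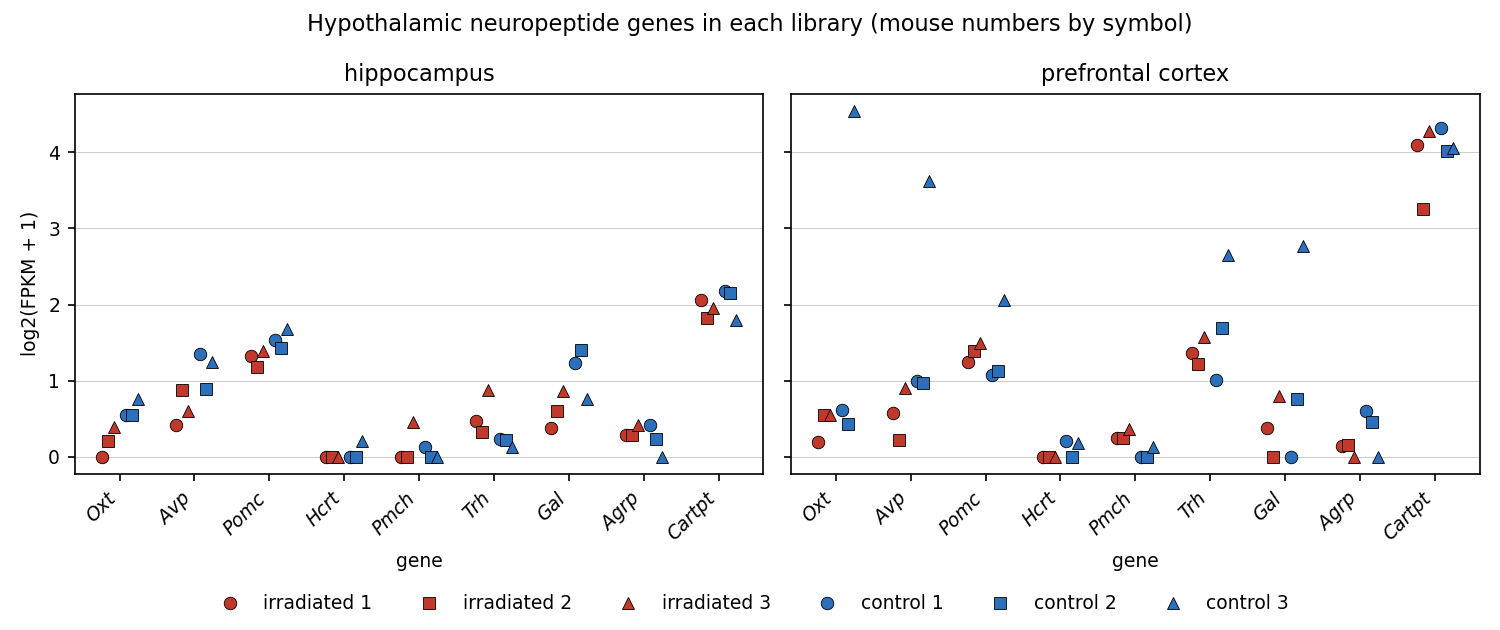
Each point is 1 library, on the scale log2(FPKM + 1), for the 9 peptide genes in hippocampus (left) and prefrontal cortex (right); red is irradiated, blue is control, and the symbol is the mouse number within its treatment. Prefrontal cortex control 3 (blue triangle) lies above all other libraries of its region for Oxt, Avp, Pomc, Trh and Gal and within or at the bottom of the range for Cartpt and Agrp.

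By the median over 6 libraries the order in hippocampus was Cartpt (3.02 FPKM), Pomc (1.66), Avp (0.852), Gal (0.757), Oxt (0.386), Agrp (0.219) and Trh (0.214), with Hcrt and Pmch at 0. In prefrontal cortex it was Cartpt (15.8 FPKM), Trh (1.77), Pomc (1.49), Avp (0.913), Gal (0.498), Oxt (0.464), Pmch (0.138) and Agrp (0.110), with Hcrt at 0. In hippocampus the libraries of Cartpt and Pomc did not overlap, and every neighbouring pair from Pomc downward overlapped in range. In prefrontal cortex the lowest Cartpt library was above the highest Trh library, and every neighbouring pair from Trh downward overlapped. Between regions 2 genes separated completely. Cartpt was at 8.51 FPKM or more in prefrontal cortex and at 3.51 or less in hippocampus, and Trh at 1.01 or more and at 0.846 or less. The other 7 genes overlapped between the regions.

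How far single libraries stood apart was counted over all genes, as a level of at least 1 FPKM and at least 3 times the highest of the other 5 libraries of the region. Prefrontal cortex control 3 had 12 such genes of 13285 (0.0903%), the most of any library on the high side, where the other 11 had 0 to 7. On the low side, 3 times under the other 5, hippocampus irradiated 2 had 68 genes of 12441 (0.547%), with none of the 9 peptide genes among them, and the other libraries had 0 to 3. Oxt, Avp and Gal were 3 of the 12. Ttr, the thyroid hormone carrier made by choroid plexus, was the most abundant of the others that encode a protein, at 58.1 FPKM against 0.553 to 2.75 FPKM. Irs4, an insulin receptor substrate enriched in the hypothalamus, was at 1.80 FPKM against 0.0684 to 0.366. Arhgap36, also enriched there, was at 2.67 against 0.275 to 0.637, and Sytl4, a vesicle docking protein, at 1.53 against 0.112 to 0.284. The remaining 5 were Ccl8, Dppa5a, 1700026L06Rik and the small nucleolar RNA genes Snora15 and Snord57. Among the peptide genes Gal lay nearest inside the threshold of 3, at 7.83 times the next library, and Trh nearest outside it, at 2.35 times.

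Transcription factors that mark hypothalamic cells were also highest in that library in 8 of the 16 list genes above 0 in prefrontal cortex, where 16.5% of all genes had their highest prefrontal value in control 3. Otp, needed for the oxytocin and vasopressin neurons to form, was 0.606 FPKM in control 3, about 12 fragments, and 0 to 0.0575 FPKM in the other 5 libraries. Sim1, which acts with Otp in the same neurons, was 0.102 FPKM, about 15 fragments, and listed at 0 in the other 5. Hmx3 was 0.254 FPKM against 0 to 0.0445, and Hmx2 0.0670 FPKM against 0 in all others. Nkx2-1, a factor of the ventral forebrain as well as the hypothalamus, was 1.47 FPKM against 0.316 to 0.813. Not all markers followed: Rax, of tanycytes, and Nr5a1, of the ventromedial nucleus, were listed at 0 in control 3, and Isl1, abundant in striatum, was 1.60 FPKM within a range of 0.784 to 1.75 in the others. In hippocampus, Otp was 0 to 0.103 FPKM and Sim1 0 to 0.0222 FPKM, and Hmx2 and Hmx3 were listed at 0 in all 6 libraries.

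**Figure D2:**
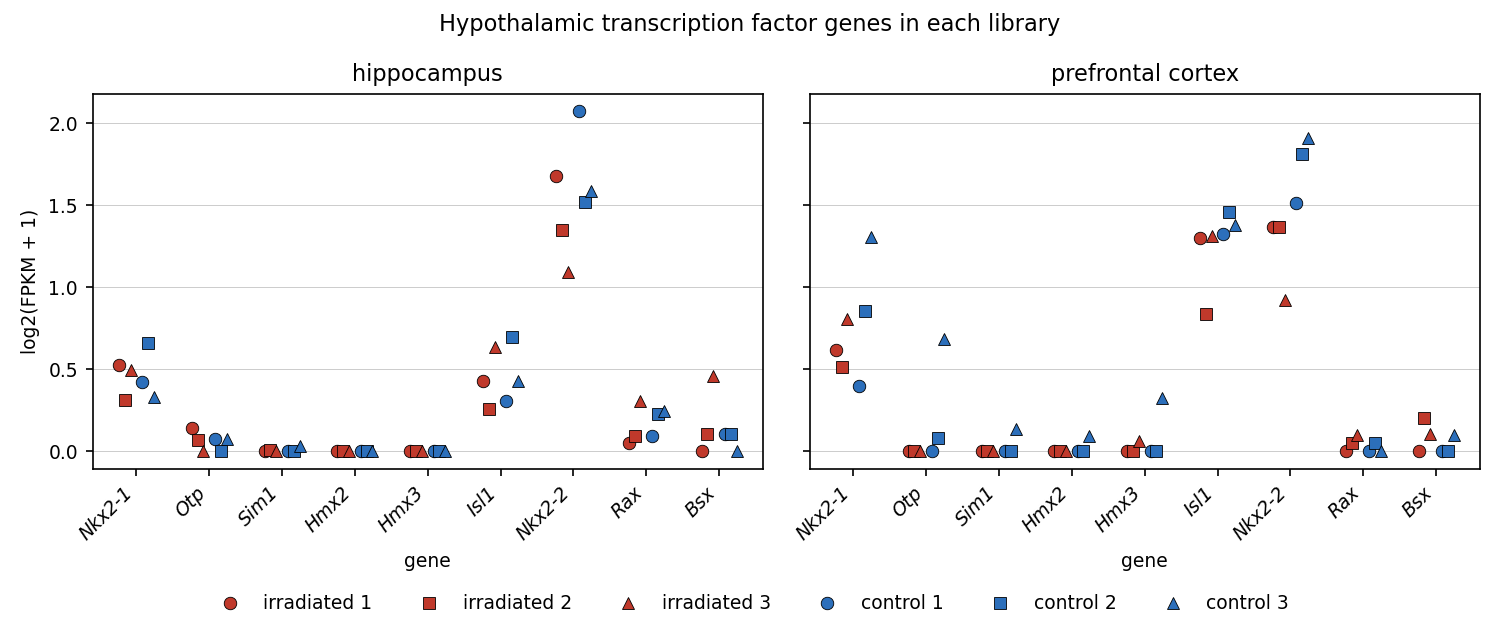
Each point is 1 library, on the scale log2(FPKM + 1), for 9 transcription factor genes of the hypothalamus list in hippocampus (left) and prefrontal cortex (right), with colours for treatment and symbols for mouse number. Otp, Sim1, Hmx2, Hmx3 and Nkx2-1 are highest in prefrontal cortex control 3, while Isl1, Rax and Bsx are not.

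Marker genes of some other tissues near the hypothalamus or the frontal cortex were also high in prefrontal cortex control 3. The 15 choroid plexus genes summed to 67.6 FPKM against 4.62 to 6.56 FPKM in the other 5 libraries, and 14 of the 15 were highest there. Ttr made up most of the sum, Folr1 was 0.553 FPKM against 0.0874 to 0.181, and Kl and Clic6 were 1.40 and 2.53 FPKM against ranges of 0.730 to 1.03 and 1.07 to 2.19. The 15 striatal genes summed to 1133 FPKM against 864 to 969 FPKM and all 15 were highest in control 3, none of them at 0 in any library. For Penk, the enkephalin precursor, this was 243 FPKM against 181 to 235, and for Scn4b 94.1 FPKM against 71.8 to 82.7. Of 7 genes of basal forebrain cholinergic neurons 4 were highest there, with Chat (acetylcholine synthesis) at 3.07 FPKM against 1.28 to 2.50. Of 12 pituitary genes, Gh (growth hormone) at 0.427 FPKM was listed at 0 in the other 11 libraries of the study. Tshb and Prl were 0.288 and 0.145 FPKM, about 1 and 2 fragments, against 0 in the other 5 of the region. Similar levels occurred in hippocampus, with Tshb at 0.285 FPKM in irradiated 1 and Prl at 0.149 FPKM in control 1. Cga, Fshb and Pou1f1 were listed at 0. Control 3 was the highest library for 0 of 7 habenula genes, 1 of 9 brainstem monoamine genes, 4 of 11 thalamus genes, 4 of 9 genes of ependyma and tanycytes, 5 of 12 genes of hippocampal subfields and 1 of 10 genes of cortical layers. What these tissues contribute to the peptide values in control 3 was not tested.

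Of 21 other peptide genes above 0 in prefrontal cortex, 6 (28.6%) were highest in control 3, against 16.5% of all genes. Control 3 was not alone in this, since irradiated 1 was also highest for 6 of the 21 (28.6%), against 13.3% of all genes. The abundant cortical peptide genes Cck, Sst and Npy were at 554, 454 and 135 FPKM there. The other 5 libraries had 555 to 672 FPKM of Cck, 360 to 500 of Sst and 130 to 159 of Npy, so control 3 was not high in any of them. Tac2 (neurokinin B) was 21.4 FPKM against 11.3 to 13.3, and Nts (neurotensin) 9.31 FPKM against 1.17 to 4.19. Gnrh1, of the scattered septal and preoptic neurons that drive the reproductive axis, showed another pattern: it was 3.64 FPKM in prefrontal cortex irradiated 3, 2.36 FPKM in control 2, and 0 to 0.484 FPKM in the other 4. Lhx8, of the basal forebrain, was high in those 2 libraries and in control 3, at 2.59, 2.02 and 2.71 FPKM against 0.645 to 1.27. Gal and Trh also had their highest values outside control 3 in these 2 libraries, 0.740 and 0.692 FPKM of Gal against 0 to 0.303 and 1.98 and 2.24 FPKM of Trh against 1.01 to 1.56. Oxt, at 0.470 and 0.344 FPKM, and Avp, at 0.870 and 0.956 FPKM, lay there within the range of the other libraries.

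**Figure D3:**
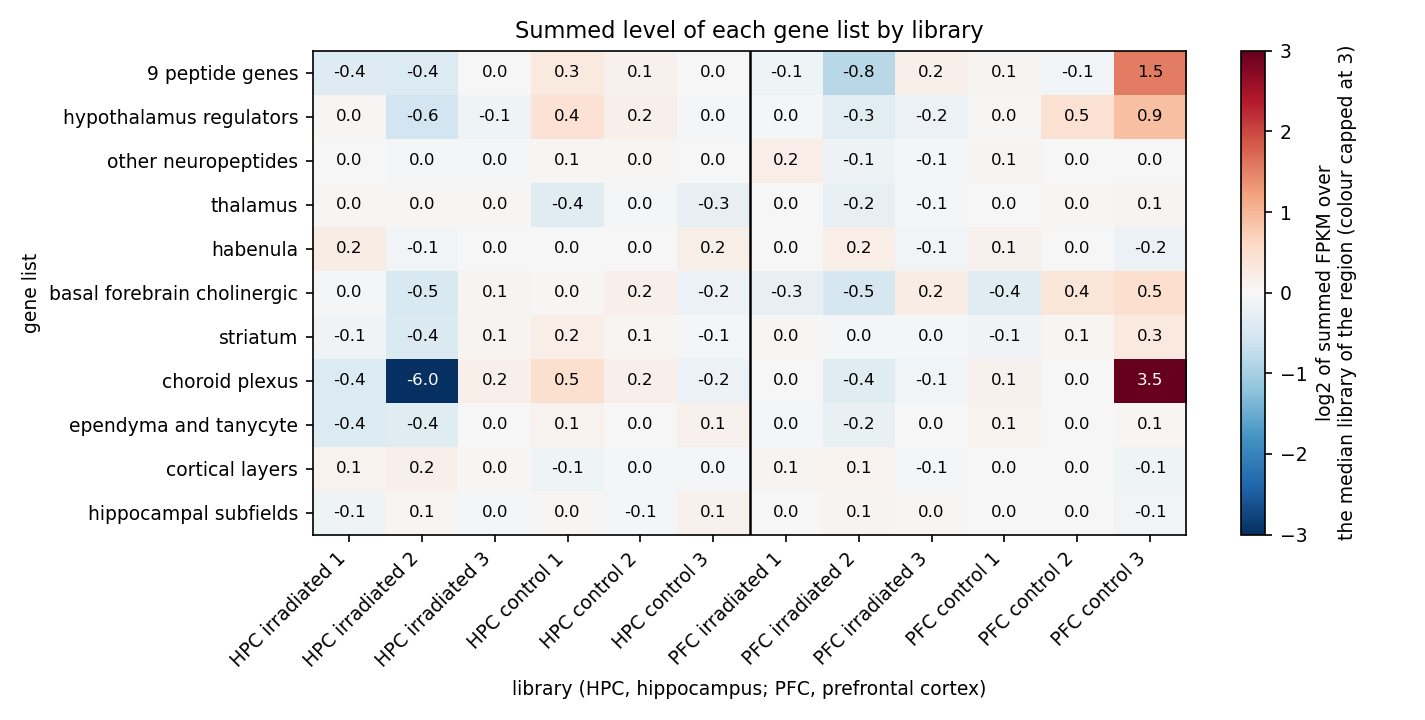
Rows are gene lists, columns are the 12 libraries, and each cell gives the log2 ratio of the list's summed FPKM to the median library of the same region, with colour capped at 3 in either direction. Within prefrontal cortex, the peptide genes, the hypothalamus regulators and the choroid plexus genes are highest in control 3. Genes of striatum, basal forebrain cholinergic neurons and thalamus are also highest there, by smaller ratios. The choroid plexus genes are lowest in hippocampus irradiated 2.

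The genes most like each peptide gene, by Pearson's r of region-centred log2(FPKM + 1) over 12 libraries among 13840 genes, mostly followed the same library. Oxt was closest to Snord57 (r = 0.983), Avp (0.955) and Sytl4 (0.954), and Avp to Il33 (0.964), Oxt and Snord57 (0.930). Snord57, a small nucleolar RNA gene, was listed at 0 in the other 5 prefrontal libraries. Gal was closest to Tmed4 (0.923), Avp (0.908) and Nkx2-1 (0.902), and Trh to Fgf3 (0.925), Irs4 (0.906) and Gpr101 (0.895). Pomc was closest to Zfp867 (0.918), Tmed4 and Lrrc10b (both 0.894). Cartpt had different neighbours, Tomm40 (0.974), Lsm6 (0.944) and Rps9 (0.943), whose lowest prefrontal library was irradiated 2, as for Cartpt. Rps9, a ribosomal protein gene, was 221 FPKM there against 360 to 388 in the others. These are descriptions, since 1 library can set such a correlation and all libraries share a scale.

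Irradiated and control mice were compared within each region, to see which brain transcripts differed after exposure of the abdomen. Across all genes the test called 0 of 12947 in hippocampus (0%; limma, Benjamini-Hochberg, threshold 0.05), with 1361 genes (10.5%) at an unadjusted p under 0.05. In prefrontal cortex it called 1 of 12729 (0.00786%), the small nucleolar RNA gene Snora81, with 920 (7.23%) at an unadjusted p under 0.05. No gene of 12894 was called for a difference of the effect between regions (0%), with 422 (3.27%) at an unadjusted p under 0.05. Of the 9 peptide genes, Pomc and Cartpt had the mean of 1 FPKM needed to be tested in hippocampus, and 6 had it in prefrontal cortex. Of these 6, Oxt, Avp and Gal had it only through control 3, and no test outcome is given for the peptide genes.

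In prefrontal cortex the differences of Oxt, Gal and Trh rested on control 3, and that of Avp did so in part. Oxt was 0.359 ± 0.182 FPKM in irradiated mice and 7.73 ± 12.6 FPKM in controls (SD, n = 3 each), a difference of -1.43 ± 1.35 (SE) on the log2(FPKM + 1) scale. Without control 3 the control mean was 0.439 FPKM and the difference -0.09. Avp was 0.511 ± 0.350 FPKM against 4.42 ± 5.97 FPKM, a difference of -1.29 ± 0.90, and without control 3 the control mean was 0.972 FPKM and the difference -0.41. Avp kept the lower irradiated values without that library, and they were values of 1 to 5 fragments against about 5.

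Gal was 0.348 ± 0.372 FPKM in irradiated mice against 2.16 ± 3.16 FPKM, and 0.346 FPKM in controls without control 3. Its difference went from -0.78 ± 0.86 to 0.01. Trh was 1.62 ± 0.331 FPKM against 2.83 ± 2.19 FPKM, and 1.62 FPKM in controls without control 3, and its difference went from -0.40 ± 0.49 to 0.03. Pomc turned from -0.05 ± 0.33 to 0.27, with 1.60 ± 0.217 FPKM in irradiated mice and a control mean of 1.83 ± 1.17 FPKM, or 1.15 FPKM without control 3. The remaining 4 genes kept their direction without it: Agrp went from -0.25 ± 0.19 to -0.43, Hcrt from -0.13 ± 0.07 to -0.10, Pmch from 0.24 ± 0.06 to 0.29 and Cartpt from -0.26 ± 0.33 to -0.30. Cartpt changed sign, to 0.05, without prefrontal irradiated 2. Over all genes the number at an unadjusted p under 0.05 was 671 (5.28%) without control 3, and 825 to 1150 with another prefrontal library left out. Snora81 was again called without control 3.

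In hippocampus Oxt differed by -0.42 ± 0.13, Avp by -0.53 ± 0.20, Pomc by -0.25 ± 0.10 and Trh by 0.37 ± 0.17 on the log2(FPKM + 1) scale. Leaving out each library in turn gave -0.52 to -0.32 for Oxt, -0.66 to -0.42 for Avp, -0.31 to -0.19 for Pomc and 0.20 to 0.48 for Trh, whose lowest value came without irradiated 3. Since these groups did not overlap, leaving out 1 library could not turn a sign. Gal differed by -0.52 ± 0.24, Cartpt by -0.10 ± 0.14, Agrp by 0.11 ± 0.13, Pmch by 0.11 ± 0.16 and Hcrt by -0.07 ± 0.07. Pmch changed sign, to -0.04, without irradiated 3. In these tissue pieces fewer cells of a type and less RNA per cell cannot be told apart.

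Groups without overlap were counted in each direction. In hippocampus 3 of 9 peptide genes had every irradiated library below every control (7.01% of 18984 genes did) and 1 of 9 above (6.54%). In prefrontal cortex 1 of 9, Avp, was below (6.84% of 18910 genes) and 1 of 9, Pmch, above (5.2%). The choice of genes used these libraries, so nothing is read from the shares. Beside the hippocampal values, choroid plexus genes were uneven: they summed to 67.7 FPKM in irradiated 2 and to 3191 to 5952 FPKM in the other 5, with none of the 15 at 0. Irradiated 2 had the lowest of the 6 summed peptide levels, 5.78 FPKM, close to 5.92 FPKM in irradiated 1, and the other 4 had 7.68 to 9.39 FPKM. The hypothalamus list summed to 2.39 to 3.64 FPKM in irradiated hippocampus and to 3.42 to 4.77 FPKM in controls. Its highest gene in every hippocampal library was Nkx2-2, which oligodendrocyte precursors also express, at 1.14 to 3.22 FPKM. Sums of thalamus, cortical layer and brainstem monoamine genes separated the groups without overlap, and those of every other list overlapped. Over all genes, taken singly, 13.5% separated the groups in either direction, which is not a share for sums of genes. Thalamus genes summed to 49.4 to 49.9 FPKM in irradiated hippocampus and 37.7 to 47.1 FPKM in controls. Cortical layer genes summed to 110.0 to 120.8 against 98.6 to 105.1 FPKM, and brainstem monoamine genes to 5.76 to 6.48 against 7.80 to 7.99 FPKM. The part of uneven tissue in these differences was not tested. Without irradiated 2, 801 genes (6.18%) were at an unadjusted p under 0.05. Leaving out another hippocampal library gave from 580 (4.48%, without control 1) to 1998 (15.4%, without control 3), so 801 lay within that range.

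**Figure D4:**
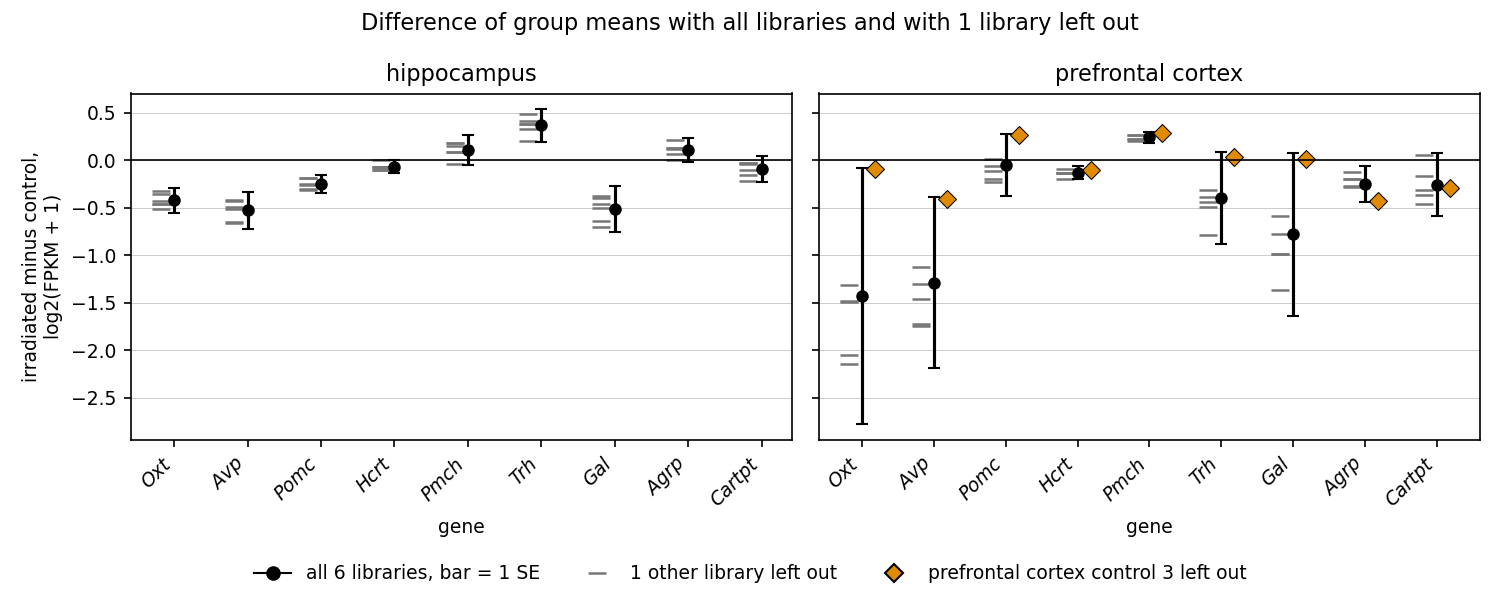
Irradiated minus control on the log2(FPKM + 1) scale for the 9 peptide genes in hippocampus (left) and prefrontal cortex (right): black points are all 6 libraries with 1 SE, grey dashes leave out 1 other library, and orange diamonds leave out prefrontal cortex control 3. The prefrontal differences of Oxt, Gal and Trh lie near 0 without that library, and that of Avp lies nearer to 0.

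The receptors through which these peptides act are not among the 9 genes, but their list was also chosen with earlier results of these data known. Mchr1, the receptor of melanin-concentrating hormone, was the most abundant, at 7.50 to 8.67 FPKM in hippocampus and 11.9 to 14.0 FPKM in prefrontal cortex, although its ligand's gene Pmch was at 0.375 FPKM or less. Of 17 receptor genes 6 reached the mean of 1 FPKM for the region test, where 45.9% of 12894 genes were called, and 5 of the 6 were called, 2 higher in hippocampus (23.1% of all genes tested) and 3 lower (22.8%). Mc4r, the melanocortin receptor that limits feeding, was higher in hippocampus by 0.69 ± 0.08 (adjusted p = 1.50e-05, limma), and the thyrotropin-releasing hormone receptor Trhr by 0.55 ± 0.13 (adjusted p = 0.0040). Trhr2, the other receptor of that peptide, was lower in hippocampus by a difference of -1.50 ± 0.11 (adjusted p = 1.87e-07), Mchr1 by -0.60 ± 0.05 (adjusted p = 1.23e-06) and the opioid receptor Oprm1 by -0.39 ± 0.10 (adjusted p = 0.0061). Oxtr, the oxytocin receptor, was 2.14 to 3.13 FPKM in hippocampus and 1.48 to 3.13 FPKM in prefrontal cortex, and did not pass (adjusted p = 0.19).

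Oxtr was 2.37 FPKM in prefrontal control 3, between controls 1 and 2 at 2.38 and 2.31 FPKM, so the library high in Oxt was not high in its receptor. Avpr1a was at 0.261 FPKM or less in every library, Avpr1b at 0.297 FPKM or less in hippocampus and listed at 0 in all prefrontal libraries. The orexin receptors Hcrtr1 and Hcrtr2 were 0.304 to 1.11 and 0.424 to 0.852 FPKM, and Galr1 0.0801 to 0.677 FPKM. Irradiation called none of the 4 receptor genes tested in hippocampus and none of the 5 in prefrontal cortex, and none of these was at an unadjusted p under 0.05. The largest of the 9 differences was 0.23 ± 0.16 for Oprm1 in prefrontal cortex.

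**Figure D5:**
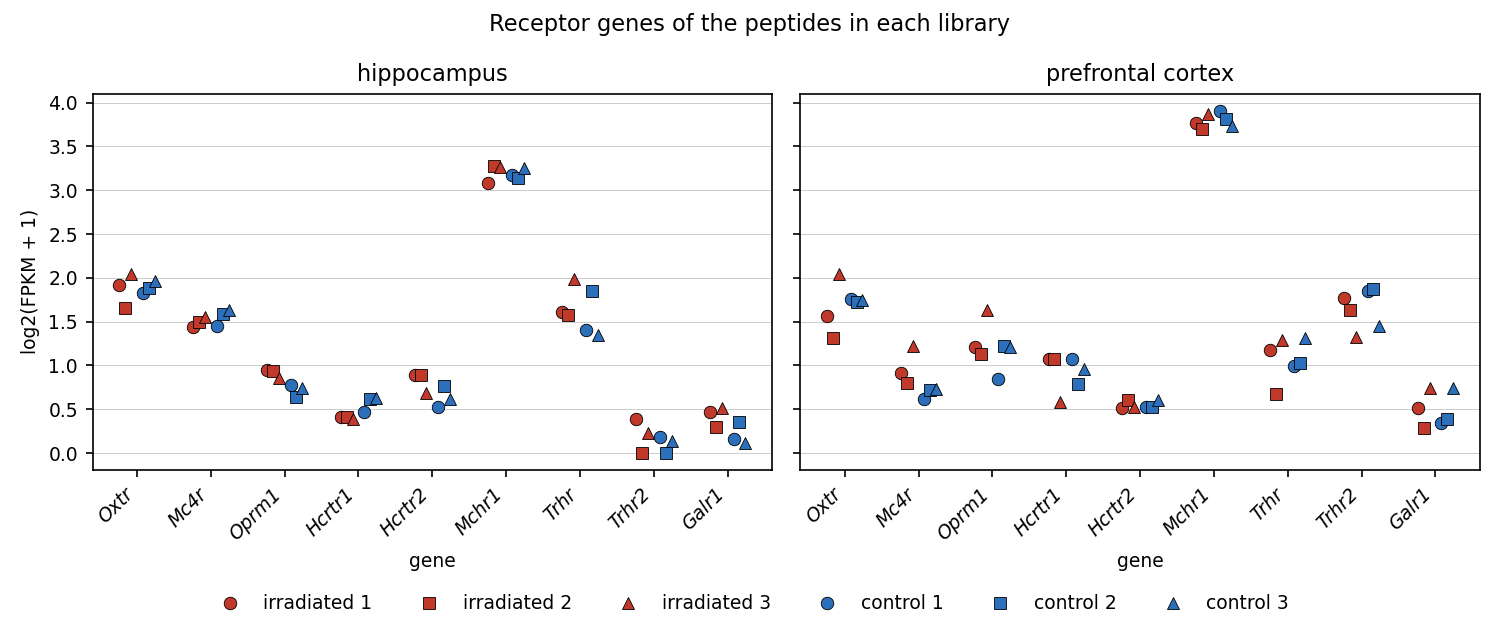
Each point is 1 library, on the scale log2(FPKM + 1), for 9 receptor genes in hippocampus (left) and prefrontal cortex (right), with colours for treatment and symbols for mouse number. Mchr1 and Trhr2 lie higher in prefrontal cortex, Mc4r lies higher in hippocampus, and prefrontal cortex control 3 is not set apart from the other libraries.

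The machinery that cuts and stores peptide precursors was abundant in both regions. All 17 genes of that list were tested between regions, and 3 were higher in hippocampus and 9 lower, against 23.1% and 22.8% of all genes tested. Cpe, the carboxypeptidase that trims the cut ends, was higher by 0.47 ± 0.05, at 1400.1 to 1508 FPKM against 1024.5 to 1119 FPKM, and Chgb by 0.40 ± 0.05. The convertase Pcsk2 was lower in hippocampus by a difference of -0.83 ± 0.06 and Pcsk1 by -0.45 ± 0.10. Under irradiation 0 of the 17 were called in either region. Hippocampal Pcsk1 was 9.23, 8.76 and 9.18 FPKM in irradiated mice and 5.81, 7.83 and 6.78 FPKM in controls, without overlap, a difference of 0.37 ± 0.10 that did not pass (adjusted p = 0.47, limma). Of 9 peptidases that break peptides down, 2 were higher in hippocampus and 3 lower, near the shares of all genes, with Trhde, which degrades thyrotropin-releasing hormone, higher by 0.47 ± 0.06, and 0 were called under irradiation. Of 13 other peptide genes tested between regions, 2 were higher and 8 lower in hippocampus, where 23.1% and 22.8% of all genes were, from -0.93 ± 0.07 for Npy to -2.93 ± 0.10 for Tac1.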

How the data were processed

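The authors deposited a table of symbols and values for each library. Per the submitters' processing notes TopHat and mm10 were used, with no version. The sources used here do not give the counter, the annotation or the use of strand. The deposited values name no unit and were taken as FPKM: they are not whole, their sums differ between libraries, and across 1445 genes of a single transcript the smallest non-zero value fell with transcript length (rank correlation -0.831). RPKM would look the same. RNA was extracted with Trizol and libraries made with a directional NEBNext Ultra II kit, per the labels' protocols.

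Tables were read with pandas 2.3.3. limma 3.58.1 (R 4.3.3) was run as limma-trend on log2(FPKM + 1), on genes whose mean reached 1 FPKM in the libraries compared, in 2-sided tests with Benjamini-Hochberg adjustment over all genes and a threshold of 0.05, and was tested on simulated data. A difference on this scale understates the change of genes near or below 1 FPKM. Depth was estimated from the steps of values under 0.3 FPKM, and of 55 low values of peptide and regulator genes 48 were whole numbers of such steps within 0.2. The step estimates give no counting error per gene. Of 23183 symbols, 22148 (95.54%) matched a GENCODE M21 gene.

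The members and lists were chosen with earlier results of these data known. Named are all 9 peptide genes, of each of 15 other lists up to 4 members with the highest level in any library and examples of those called, and the 3 genes most alike. Some genes that the list rule takes are given only within the counts of their list, and 1 list gene is not reported here. Genes chosen after their values were seen are Sim1, Hmx2, Hmx3, Rax, Nr5a1, Bsx, Tac2, Nts, Gnrh1, the pituitary genes, the receptors at low levels, and the genes standing out in 1 library. Per the titles, a mouse number within a treatment names 1 mouse in both regions, and deviations from the group means correlated at -0.00601 to 0.300 over the 6 such pairs. Alternatives were another pseudocount, other filters, rescaling to equal totals, a replicate block and leaving out each library.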

Additional observations from a re-analysis of the deposited data

How the results depend on the processing

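Called genes in hippocampus numbered 0, but 4 after rescaling to equal totals and 0 to 1 with 1 library left out (1 without irradiated 1 and 1 without control 3). In prefrontal cortex the count was 1, but 2 with no filter on low values and 1 to 4 with 1 library left out (4 without control 1, 3 without irradiated 1, 2 without irradiated 2). The difference between regions gave 0, but 1 with no filter and 0 to 2 with 1 library left out (2 without hippocampus control 3). The region comparison gave 5919 and 5351 to 5763 with 1 library left out. With the mouse as a replicate block the counts were 0 for the difference and 6523 between regions, 5847 of them shared with the 5919. Within a region the block joined an irradiated and a control mouse of the same number, which are different mice. It gave 0 calls in hippocampus and 1 in prefrontal cortex, the same calls as without it, but such a block does not account for the mouse. The median difference of the 9 peptide genes in hippocampus was -0.096, but -0.379 with a pseudocount of 0.1 and -0.188 to -0.068 with 1 library left out. In prefrontal cortex it was -0.256, but -0.863 with a pseudocount of 0.1 and -0.457 to -0.089 with 1 library left out. Genes standing out in prefrontal cortex control 3 numbered 12, and 25 with a floor of 0.3 FPKM, an alternative chosen after seeing the data. Of 27 single differences of peptide genes, 15 moved by more than 1 SD with a pseudocount of 0.1, and 0 after rescaling. Where no cause is named, the cause was not tested. Values of about 10 fragments or fewer limit Hcrt, Pmch and Agrp in all libraries, and Oxt and Avp in all except prefrontal cortex control 3. They also limit Trh in hippocampus and in prefrontal cortex control 1. Fragments were not estimated for Gal, which was at 0 to 1.65 FPKM outside prefrontal cortex control 3. The same limit may hold for Gal.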

Other observations

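Genes of another neighbouring tissue, chosen after their values were seen, stood apart in control mouse 1. In hippocampus control 1, Gabra6, a receptor subunit of cerebellar granule cells, was 1.53 FPKM against 0.166 to 0.222 FPKM in the other 5 libraries, Cbln3 was 1.93 against 0.188 to 0.470, and Ppp1r17, of Purkinje cells, was 1.23 against 0.352 to 0.393. Pcp2, also of Purkinje cells, was 6.85 FPKM there and 3.12 FPKM or less in the other 5, and in prefrontal cortex control 1 it was 2.00 FPKM against 0 to 0.585. No peptide gene of that mouse reached both 1 FPKM and 3 times the other libraries of its region.

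Nmb, the neuromedin B gene, was low in control mouse 3 in both regions: 4.78 FPKM against 19.6 to 35.6 FPKM in hippocampus and 2.27 FPKM against 6.46 to 9.56 FPKM in prefrontal cortex. Eps8l1 was low in the same mouse in both regions, at 0.149 FPKM against 1.08 to 2.06 and at 0.137 FPKM against 0.951 to 1.42. In the hippocampus of that mouse no peptide gene reached both 1 FPKM and 3 times the other libraries. Of the peptide genes high in its prefrontal cortex, Oxt (0.697 FPKM) and Pomc (2.19 FPKM) were highest there among hippocampal libraries and Trh (0.0921 FPKM) was lowest. Nmb and Eps8l1 were low in both pieces of its brain.

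Lhb, the beta subunit of luteinizing hormone, was listed at 0 in hippocampus irradiated 2, the library low in choroid plexus genes, and was 1.03 to 2.74 FPKM in the other 5 hippocampal libraries.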
